A study of Rattus norvegicus with 8 samples.

Results

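The transcripts described here are those of 9 genes of the monoamine system, which were Drd1a, Drd2, Drd3 and Drd4 (dopamine receptors), Th and Ddc (synthesis), Slc18a2 (vesicle loading) and Maoa and Maob (breakdown). They were chosen by name, as every probe outside the controls whose gene name in the array design is 1 of these, and all 9 were found among the 35561 gene names on the array, with 11 probes in 38 spots, out of the 41012 probes and 43379 spots on each array. Of the 11 probes, 10 could be tested, among 31689 tested probes in all. The samples were medial thalamus from 8 male Sprague-Dawley rats of 277 g, all under urethane given into the peritoneum and all carrying an inflatable cuff on the trachea. In the 4 occlusion rats the cuff closed the airway for 2 to 4 breaths, opened for 15 breaths or more, and went on so for 10 min before the brain was taken at once. In the 4 surgical controls the cuff was left deflated and the brain was taken 70 min after setup. No source used here gives that interval for the occlusion rats, so duration of anaesthesia and treatment cannot be told apart. RNA of each rat was labelled with Cy5 and hybridised, on 1 array, with a Cy3-labelled pool of all 8 rats, and every value below is a log2 ratio of the rat to that pool unless another scale is named.

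Dopamine is made from tyrosine by tyrosine hydroxylase, the product of Th, and then by aromatic amino acid decarboxylase, the product of Ddc, which also makes serotonin. The vesicular transporter encoded by Slc18a2 loads dopamine, noradrenaline, serotonin and histamine into synaptic vesicles, the receptors signal through G proteins, and the monoamine oxidases Maoa and Maob on the mitochondrial outer membrane degrade the amines. Monoamine axons reach the midline and medial thalamus from the midbrain, hypothalamus and brainstem, and most of their cell bodies lie outside it. In tissue pieces such as these, fewer cells of a type and less RNA per cell cannot be told apart.

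None of these genes passed the test between occlusion and control rats. Among the 10 tested probes 0 had an adjusted p under 0.05 (limma, Benjamini-Hochberg over all tested probes), beside 0 of 31689 probes in all, or 0%, and the smallest adjusted p of any probe was 0.975. Of the 10 probes 0 had an unadjusted p under 0.05, beside 977 of 31689, or 3.08%. In each of the 11 probes the values of the 2 groups overlapped, and over all probes with 8 values the groups did not overlap in 2.38%. Th, Ddc and Slc18a2 had the widest spread between rats among the tested probes of these genes, with occlusion 1 highest in all of them and control 3 lowest in Ddc and Slc18a2.

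**Figure D1:**
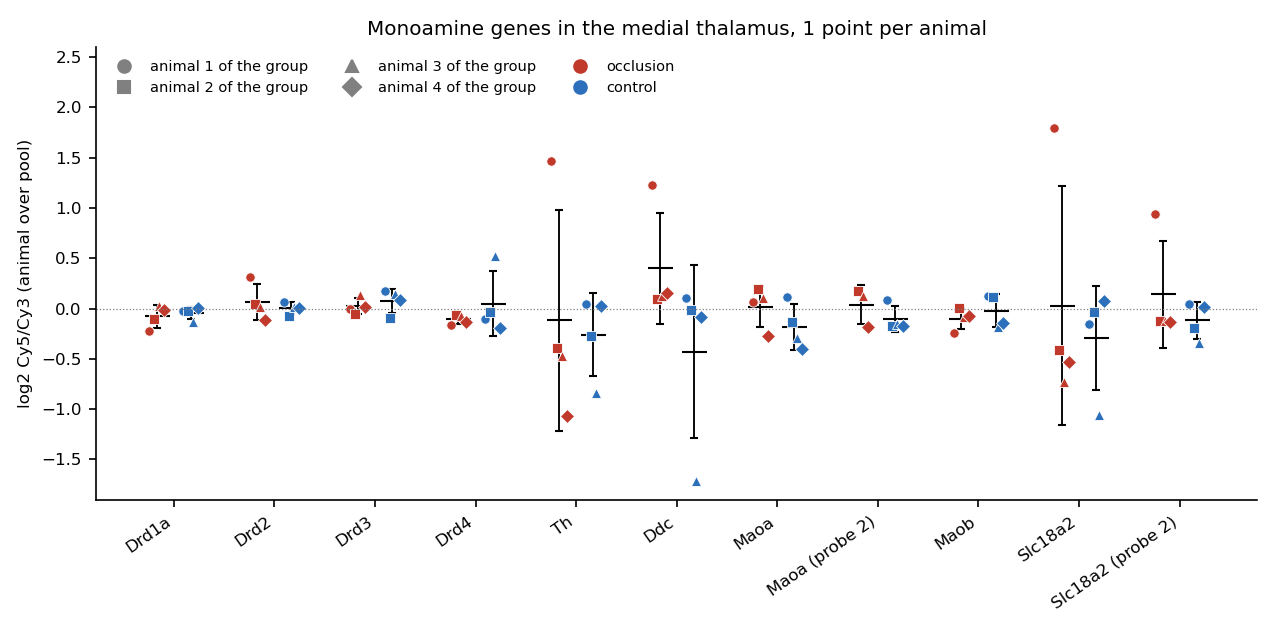
Log2 Cy5/Cy3 (animal over pool, vertical axis) of each of the 11 probes (horizontal axis), with 1 point per animal, occlusion in red and control in blue; the marker shape gives the animal's number and the black bars the group mean and SD. Th, Ddc and Slc18a2 reach from 1.80 in occlusion 1 down to -1.71 in control 3, while the receptors other than Drd4 stay between -0.23 and 0.31.

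Control 3 stood apart from the other rats before any of these genes is considered. The mean log2 ratio of 9 tested genes marking thalamic relay neurons was -1.83 in it, with the other 7 rats at -0.48 to 0.19, that of 8 habenula genes was -1.56, and that of 8 cortex genes was 1.43, against -1.19 to -0.82 elsewhere. The labelled tissue is medial thalamus, and Slc17a6, the vesicular glutamate transporter of relay neurons, was -2.99 in control 3, where the others had -0.02 to 0.25. In control 1, 68.3% of spots exceeded background clearly in Cy5, against 74.8% to 80.2% on the other arrays. Control 1 also had the most outlier spots, 853 against 136 to 423 elsewhere. The arrays lay on 2 slides, each with 2 rats of each group. Occlusion 4 had a habenula mean of -1.01 and the highest mean of 10 hypothalamus genes, 0.59, against -1.24 to -0.05 elsewhere. In occlusion 3 the mean of 8 choroid plexus and ependyma genes was 1.02, against -1.27 to -0.19 elsewhere. Occlusion 1 stood apart in some of the dopamine neuron genes given below, and not in these alone. Cartpt of the hypothalamus genes was 2.85 in it, against -3.12 to -0.81 elsewhere, while Gal of the same list was lowest in it, at -0.70. Results on the 9 genes that rest on control 3 or occlusion 1 are therefore given with and without them, and the part of these markers in them was not tested.

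Th, the rate-limiting enzyme of catecholamine synthesis, was printed on each array in 10 spots of 1 probe (A_44_P301729, NM_012740) placed by the array design at chr1:203318940-203318999 of the rat build rn3. Its log2 ratio was 1.46, -0.39, -0.47 and -1.07 in occlusion 1 to 4. In control 1 to 4 it was 0.04, -0.27, -0.84 and 0.03. Occlusion 1 was the highest of the 8 rats and occlusion 4 the lowest, so the occlusion group spanned the controls on both sides. The net Cy5 intensity, mean signal less local background, was 2149 in occlusion 1 and 180 to 653 elsewhere. Occluded rats averaged -0.12 ± 1.096 (SD, n = 4) and controls -0.26 ± 0.41 (SD, n = 4), a difference of 0.14 with a standard error of 0.48 and a 95% interval from -0.94 to 1.23 (limma, adjusted p = 0.988; exact permutation over 70 assignments, two-sided, p = 0.914). The smallest two-sided p that 4 rats against 4 can give is 0.0286.

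The spread of Th lay between rats and not between spots. The SD over the spots of an array had a median of 0.08 and was at most 0.21, in control 1, while the SD of the 8 rats' means was 0.77. In occlusion 1 the 9 spots used ran from 1.39 to 1.59, and in occlusion 4 the 9 spots used ran from -1.30 to -0.86, so the spots of these 2 rats did not overlap. On the Cy5 channel alone the SD over rats was 0.87, against 0.11 for the Cy3 channel, where every array carried the same pool. Over all tested probes the median of these was 0.17 in Cy5 and 0.10 in Cy3. The range of Th over the rats, 2.53, was at percentile 99.1 of all tested probes, whose median range was 0.45.

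**Figure D2:**
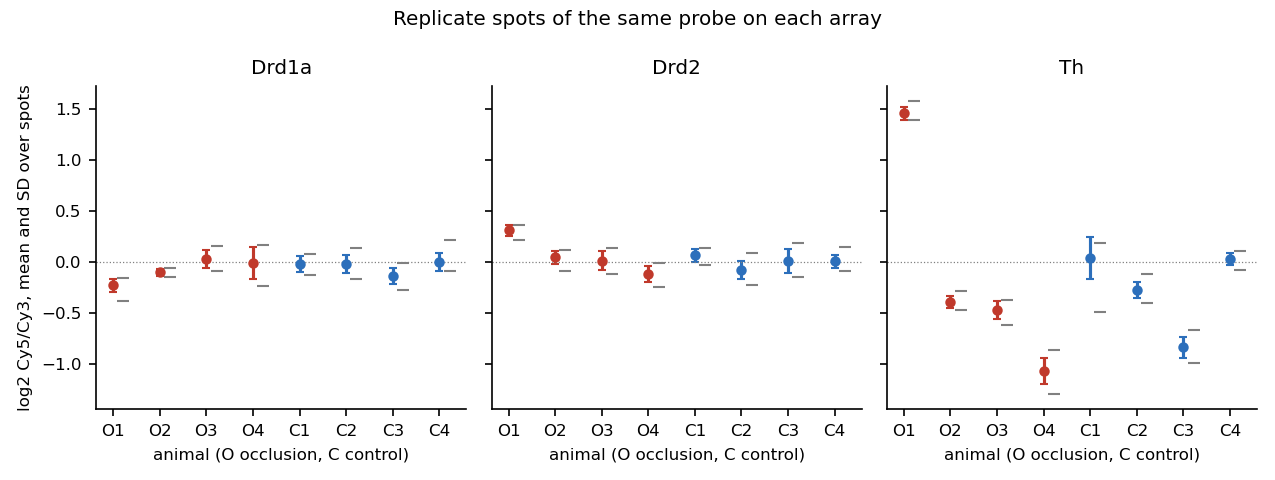
Mean and SD of the log2 Cy5/Cy3 over up to 10 spots of the same probe on each array (vertical axis) for Drd1a, Drd2 and Th, by animal (O occlusion in red, C control in blue), with grey ticks at the lowest and highest spot used. The rats differ in Th by up to 2.53, far more than the spots of 1 array, whereas the spots of most rats overlap in Drd1a and Drd2.

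Slc18a2, the vesicular monoamine transporter of the brain, followed a similar order of rats. Its brighter probe (A_44_P170382, NM_013031, chr1:266035506-266035565 of rn3) had log2 ratios of 1.80, -0.41, -0.74 and -0.53 in occlusion 1 to 4. In control 1 to 4 the ratios were -0.15, -0.03, -1.06 and 0.07. Occlusion 1 was far above its own group, the other 3 occlusion rats lay below control 1, 2 and 4, and control 3 was lowest of all. With normexp, the background model, fitted on all spots, occlusion 3 was -0.10 and lay above control 1, at -0.15. Net Cy5 intensity was 958 in occlusion 1 and 70.6 to 246 elsewhere. The difference between the groups was 0.32 with a standard error of 0.53 and a 95% interval from -0.87 to 1.52 (limma, adjusted p = 0.975; exact permutation p = 0.8).

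The SD of this probe over rats was 0.88 in Cy5 and 0.06 in the pool channel. The second probe (A_44_P1002070, chr1:266034337-266034396 of rn3) was well above background on 3 arrays, in occlusion 1, control 2 and control 4, and was not tested. It gave 0.94 in occlusion 1, the other 7 rats having -0.34 to 0.04, with occlusion 1 highest as in the first probe. Its other values outside control 2 and 4 come from spots not well above background and are bounds, with no order. Over the 8 rats the Pearson correlation of Th with Slc18a2 was 0.94 (Spearman 0.86), which rests in part on the same 2 rats and fell to 0.70 over the other 6. The 2 genes share arrays and RNA, and the coefficients are given as a description.

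Ddc was measured by 1 spot (A_43_P14910, NM_012545, chr14:92717818-92717877 of rn3). Its log2 ratio was 1.23, 0.10, 0.13 and 0.15 in occlusion 1 to 4. The controls gave 0.10, -0.02, -1.71 and -0.09 in the same order. Without occlusion 1 and control 3, the remaining 6 rats lay within 0.24 of each other, so that the whole spread came from these 2 rats, at opposite ends and in opposite groups. Net Cy5 intensity was 6911 in occlusion 1, 927 in control 3 and 2833 to 3546 elsewhere. Occluded rats averaged 0.40 ± 0.55 (SD, n = 4) and controls -0.43 ± 0.86 (SD, n = 4), a difference of 0.83 with a standard error of 0.42 and a 95% interval from -0.12 to 1.78. This was the largest difference among the tested probes of these genes, and it missed the threshold (limma, unadjusted p = 0.0793, adjusted p = 0.975; exact permutation p = 0.0571). It was 0.55 without occlusion 1, 0.40 without control 3 and 0.13 without both.

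The Ddc range of 2.94 was at percentile 99.5 of all tested probes over 8 rats, and its range of 0.24 at percentile 24.9 over the 6. Th and Slc18a2 kept a wide range over those 6 rats, at percentiles 97.5 and 94.0. The Pearson correlation of Ddc with Th was -0.64 among the 6, against 0.68 over all 8 (Spearman 0.17). Since Ddc spanned only 0.24 among the 6, from 1 spot per array, no order is read from it there.

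With occlusion 1 and control 3 both left out, an alternative chosen after the data were seen, Th and Slc18a2 were lower in the occlusion rats. Th was -0.64 ± 0.37 (SD, n = 3) in occlusion 2 to 4 and -0.07 ± 0.18 (SD, n = 3) in control 1, 2 and 4, a difference of -0.58 with a standard error of 0.18 (limma, unadjusted p = 0.0135, adjusted p = 0.994). Slc18a2 was -0.56 ± 0.16 (SD, n = 3) and -0.04 ± 0.11 (SD, n = 3), a difference of -0.52 with a standard error of 0.11 (limma, unadjusted p = 0.0014, adjusted p = 0.994). They were the 2 probes of the 10 whose groups no longer overlapped, beside 8.05% of all probes, and the 2 at an unadjusted p under 0.05, beside 2.62%. Occlusion 1 was the highest rat in both genes and control 3 the lowest in Slc18a2, so leaving them out removed extremes of the values compared. The shares over all probes carry no such choice, and nothing is concluded from setting the 2 genes beside them. In that fit 0 of 31688 probes passed after adjustment. The separation was lost with normexp fitted on all spots, where Th in occlusion 3 was -0.15 and Slc18a2 -0.10. These lay above control 2 (-0.27) and control 1 (-0.15), and the groups of both overlapped. The differences there were -0.47 for Th and -0.31 for Slc18a2 (limma, unadjusted p = 0.0626 and 0.0370, adjusted p = 0.999 for both). That fit added 725.5 in Cy5 and 500 in Cy3 to dim spots of occlusion 3, against 62.3 in each channel in the main fit. By the scanner's own ratios, the same rats stayed apart in both genes. Th was -1.43 to -0.48 in occlusion 2 to 4 and -0.32 to 0.15 in control 1, 2 and 4. Slc18a2 was -1.49 to -0.68 and -0.10 to 0.09. Those ratios were not tested for these rats alone. The sign of both genes was thus opposite to that over all 8 rats, and neither sign passed the test.

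**Figure D3:**
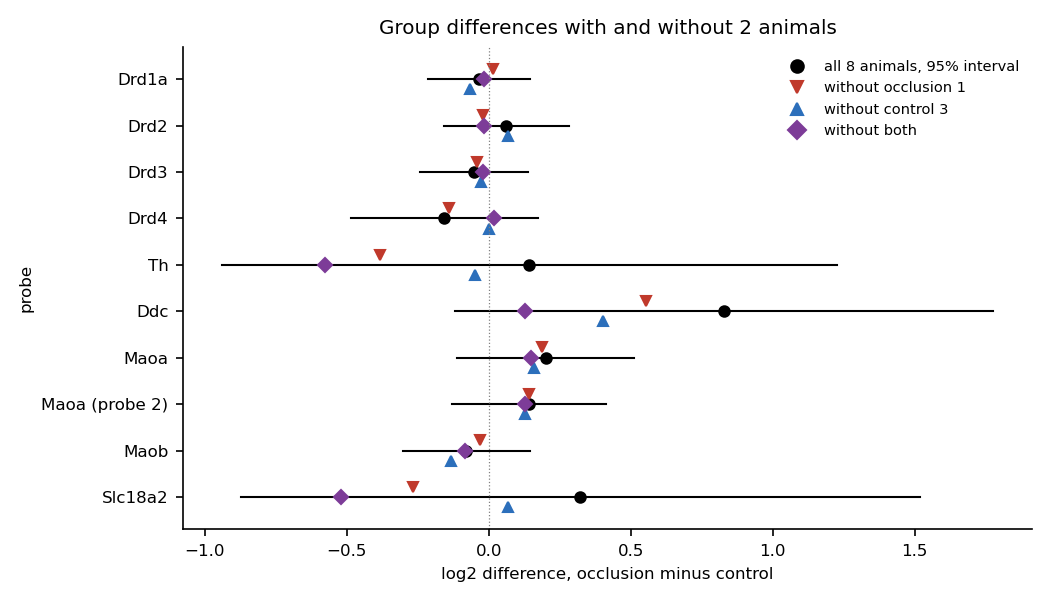
Log2 difference between occlusion and control (horizontal axis) for the 10 tested probes (vertical axis), over all 8 animals with its 95% interval in black, and as points without occlusion 1 (red), without control 3 (blue) and without both (purple). Th moves from 0.14 to -0.58 and Slc18a2 from 0.32 to -0.52 without both, Ddc from 0.83 to 0.13, and the other 7 probes shift less than these.

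The slides divided the same way, with occlusion 1 and control 3 both on slide 1. Slide 2 held occlusion 3 and 4 and control 1 and 2, all among the rats kept above, so its values are no second observation. They rest in part on occlusion 3, where Th was -0.15 and Slc18a2 -0.10 with normexp fitted on all spots. On slide 1 alone the difference was 0.94 for Th, 1.19 for Slc18a2 and 1.56 for Ddc. On slide 2 alone it was -0.65 for Th and -0.54 for Slc18a2 (limma, unadjusted p = 0.0328 and 0.0060, adjusted p = 0.987 for both), and 0.10 for Ddc. On slide 2, 2.66% of all tested probes had an unadjusted p under 0.05. Neither slide gave a call, and with the slide as a block the differences were 0.14, 0.32 and 0.83 as in the fit without it.

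Some of the genes that mark dopamine neurons set occlusion 1 apart, and others did not. Of 12 listed markers 10 had a probe, and 9 of these 10 were well above background in occlusion 1, against 6 or 7 in each other rat. Slc6a3, the dopamine transporter and a defining marker of these neurons, was well above background in occlusion 1 and control 1 only, with a log2 ratio of 2.33 in occlusion 1, -0.26 in control 1 and -1.13 to -0.79 elsewhere, where it is only a bound. Its net Cy5 intensity was 914 in occlusion 1, 73.4 in control 1 and 9.61 to 27.7 elsewhere. Foxa2, a transcription factor of midbrain floor plate and dopamine neurons, reached 2.23 in occlusion 1, the other 7 rats having -1.47 to -0.56, of which occlusion 3, occlusion 4 and control 3 are bounds, since the probe was not well above background there. Lmx1a, a determinant of midbrain dopamine neurons, was well above background in occlusion 1 alone, but its ratio of 0.03 there was not the highest. Control 1 had 0.22 and occlusion 2 had 0.20, and its net Cy5 intensity was 44.8 in occlusion 1 and 61.7 in control 1. Foxa1 was well above background in occlusion 3 alone.

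The other markers were not all high in occlusion 1. Nr4a2 was 0.28 there and 0.34 in occlusion 2, and Lmx1b was 0.05 there and 0.10 in control 1. Pitx3, which is needed by nigral dopamine neurons, was -0.12 in occlusion 1, the lowest of all rats. Ret, the receptor for glial-derived neurotrophic factor, was 1.12 in occlusion 1 and -2.09 in control 3, the same ends as Ddc. Sncg was 0.72 in occlusion 1, -1.70 in occlusion 4 and -1.57 in control 3. Foxa2, Ret and Sncg were the highest of the tested markers in occlusion 1. The mean log2 ratio of the 7 tested markers was 0.65 in occlusion 1, between -0.57 and -0.03 in the other 3 occlusion rats, and between -0.73 and 0.00 in controls. Dbh and Slc6a2, the defining enzyme and transporter of noradrenaline neurons, stayed between -0.15 and 0.15 and between -0.03 and 0.23 over all rats. The part of these cell markers in the values of Th, Ddc and Slc18a2 was not tested.

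**Figure D4:**
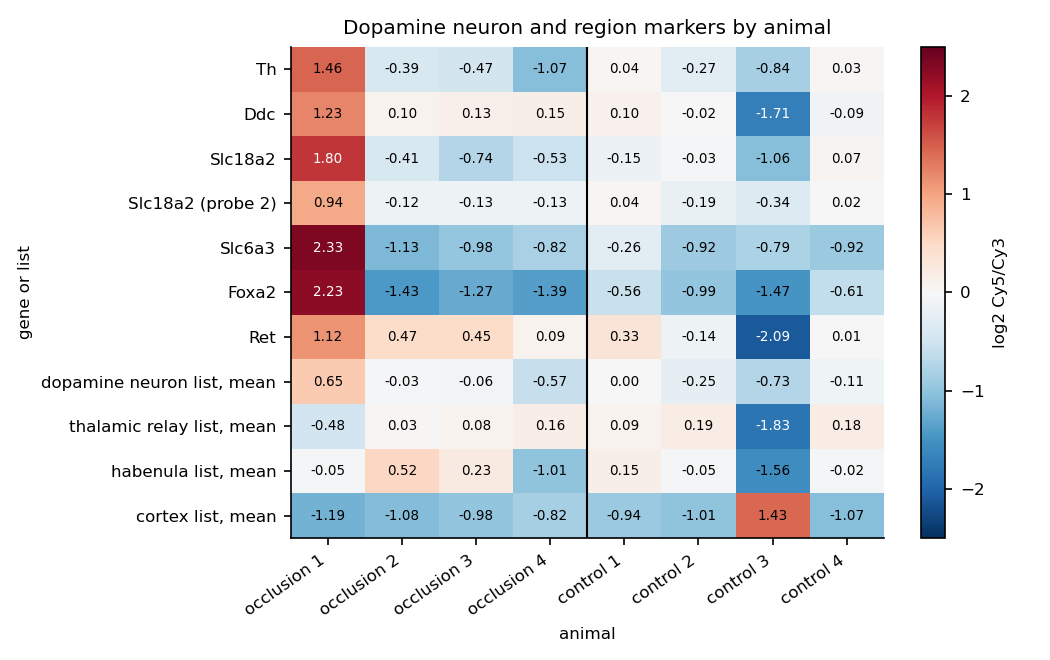
Log2 Cy5/Cy3 by animal (columns, with the line between occlusion and control), red above and blue below the pool. The rows are Th, Ddc, Slc18a2, 3 dopamine neuron markers and the means of 4 marker lists. The 3 markers drawn, Slc6a3, Foxa2 and Ret, are those with the highest ratio in occlusion 1 of the 10 with a probe. Those not drawn ran there from -0.15 (Foxa1, not well above background) to 0.72 (Sncg). Occlusion 1 is red in the upper rows, at 2.33 for Slc6a3, and control 3 is blue in Ddc, Ret and the thalamic relay list and red in the cortex list, at 1.43.

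Promoter windows are shown for Th and Slc18a2, whose values moved together over the rats, and for Slc6a3, which was high in the same rat. Each window runs from 250 bases before to 50 after the start of the gene in RefSeq on build GRCr8, 5′ to 3′ on the gene's strand. Capitals mark TGACGTCA, the cyclic AMP response element, and GGGCGG, the core of the Sp1 GC box, searched on both strands, where GGGCGG appears as CCGCCC on the other strand. The windows lie at chr1:207508169-207508468 on the minus strand for Th, chr1:268399771-268400070 on the plus strand for Slc18a2 and chr1:31578913-31579212 on the minus strand for Slc6a3.
Th: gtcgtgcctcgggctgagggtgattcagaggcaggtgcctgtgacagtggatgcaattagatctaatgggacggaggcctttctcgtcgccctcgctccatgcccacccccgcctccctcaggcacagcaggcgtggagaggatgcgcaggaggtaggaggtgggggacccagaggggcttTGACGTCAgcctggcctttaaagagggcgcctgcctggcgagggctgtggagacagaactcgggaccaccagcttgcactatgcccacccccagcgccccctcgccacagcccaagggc
Slc18a2: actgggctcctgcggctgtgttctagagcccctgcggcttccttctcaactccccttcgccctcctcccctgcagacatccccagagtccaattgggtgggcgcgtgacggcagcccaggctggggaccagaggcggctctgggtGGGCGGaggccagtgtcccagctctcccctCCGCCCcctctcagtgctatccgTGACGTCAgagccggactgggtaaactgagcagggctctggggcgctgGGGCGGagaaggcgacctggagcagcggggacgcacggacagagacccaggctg
Slc6a3: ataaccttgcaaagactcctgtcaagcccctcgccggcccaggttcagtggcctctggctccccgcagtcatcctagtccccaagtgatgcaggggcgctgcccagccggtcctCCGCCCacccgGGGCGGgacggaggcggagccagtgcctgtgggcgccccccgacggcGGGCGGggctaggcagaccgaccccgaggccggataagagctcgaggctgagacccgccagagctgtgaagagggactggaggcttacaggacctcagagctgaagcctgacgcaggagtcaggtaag

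The Th window holds TGACGTCA from -69 relative to the annotated start, and the Slc18a2 window from -52. Of 33469 windows of the same length, 612 hold it, or 1.83%, and of the 11 windows of the 9 genes these were the only ones. The Slc18a2 and Slc6a3 windows each hold GGGCGG 3 times and the Th window 0 times, and 33.1% of all windows hold it at least once. It was also found 4 times in the Maoa window and 2 times each in those of Maob, Drd2 and Drd4, while the windows of Drd1, Drd3 and the 3 annotated starts of Ddc did not hold it. The TATA box letters TATAAA are held, on either strand, by 14.2% of all windows and AAAGGTCA, the element bound by Nr4a receptors, by 1.43%. Both were found once, overlapping, in 1 of the Ddc windows and in no other window of these genes. There both read on the strand opposite to the gene, so TATAAA does not run in the direction of Ddc. The AP-1 letters TGACTCA (4.63% of all windows) and the forkhead letters TGTTTAC (3.78%) were not found in any of them. These matches describe the letters of the windows, and no binding was measured.

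The dopamine receptors are given first on the scale with the offset of 50 added to each channel, on which ratios of dim spots lie nearer 0 than on the ratios of the scanner software, which are given beside them. Drd1a, the receptor that raises cyclic AMP in striatal output neurons, was printed in 10 spots (A_44_P557376, NM_012546, chr17:16657572-16657631 of rn3) and was well above background on 7 arrays, all but control 1. Its log2 ratio was -0.23, -0.10, 0.03 and -0.01 in occlusion 1 to 4. In control 1 to 4 it was -0.02, -0.02, -0.14 and 0.00. Occlusion 1 was lowest, and the whole range of 0.25 was at percentile 11.1 of all tested probes. The difference was -0.03 with a standard error of 0.08 and a 95% interval from -0.21 to 0.15 (limma, adjusted p = 0.982; exact permutation p = 0.686). On the scanner ratios Drd1a was -0.65 in occlusion 1 and -0.33 in control 3, with the other 6 rats at -0.22 to 0.16, and the difference was -0.17. With the offset, the SD over rats, 0.09, was about that over the spots of an array, with a median of 0.08.

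Drd2, the receptor that lowers cyclic AMP and also serves as the autoreceptor of dopamine neurons, was printed in 10 spots (A_44_P121351, NM_012547, chr8:52725587-52725646 of rn3). It gave 0.31, 0.05, 0.02 and -0.12 in occlusion 1 to 4. The controls gave 0.07, -0.08, 0.01 and 0.01. Occlusion 1 was again the highest rat, and its 9 spots used, from 0.22 to 0.37, all lay above the highest spot in every other rat, 0.19. Net Cy5 intensity was 193 in occlusion 1 and 97.7 to 139 elsewhere. The difference between groups was 0.06 with a standard error of 0.10 (95% interval -0.16 to 0.28; limma, adjusted p = 0.975; exact permutation p = 0.657), and -0.02 without occlusion 1. On the scanner ratios occlusion 1 was 0.54, the other 7 rats -0.19 to 0.24, and the difference 0.07. Its correlation with Th over the 8 rats was 0.90, and 0.56 without occlusion 1.

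Drd3, the high-affinity receptor of limbic regions, was measured by 1 spot (A_43_P11836, NM_017140, chr11:58504524-58504584 of rn3). It was 0.00, -0.05, 0.14 and 0.02 in occlusion 1 to 4. The controls were 0.17, -0.10, 0.15 and 0.08. High and low rats were found in both groups, and the SD over rats in Cy5, 0.15, was below that of the same pool in Cy3, 0.18, so the values of single rats were not resolved from the spread of the reference. The difference was -0.05 with a standard error of 0.08 (95% interval -0.24 to 0.14; limma, adjusted p = 0.975; exact permutation p = 0.486). On the scanner ratios it was -0.17, with rats at -0.21 to 0.37.

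Drd4, the receptor best known from cortex and retina, was measured by 1 spot (A_44_P332729, NM_012944, chr1:201639930-201639989 of rn3) that was well above background on 5 arrays, in 2 occlusion and 3 control rats. Its ratio was -0.16, -0.07, -0.07 and -0.13 in occlusion 1 to 4. In control 1 to 4 it was -0.10, -0.04, 0.53 and -0.19. Control 3 was the single high one, with a net Cy5 intensity of 133 against 28.7 to 56.1 in the others. Cortex markers were also high in that rat, and their part in this value of 1 spot was not tested. The difference was -0.16 with a standard error of 0.15 (95% interval -0.49 to 0.17; limma, adjusted p = 0.975; exact permutation p = 0.486), and it was 0.000657 without control 3. On the scanner ratios control 3 was 1.34 and the other 7 rats -0.98 to 0.00, with a difference of -0.53. For Drd1a and Drd4 the pool was well above background in Cy3 on 0 arrays, and the offset of the background correction draws ratios of such dim spots toward 0, so small differences were not detectable there.

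The oxidases were bright. The range over rats was 0.60 for the first Maoa probe, at percentile 69.0 of all tested probes, 0.36 for the second, at percentile 32.6, and 0.37 for Maob, at percentile 34.8. Maoa, which prefers serotonin and noradrenaline, had 2 probes on the same transcript (XM_343764, chrX:17736994-17740285 and chrX:17736974-17740265 of rn3). They overlap in position and each crosses an intron-sized gap of the genome, so they are no independent measures. The first (A_44_P264293) gave 0.06, 0.19, 0.10 and -0.28 in occlusion 1 to 4. Its control values were 0.12, -0.13, -0.30 and -0.41. Of the occlusion rats 3 were positive and of the controls 1, with occlusion 4 and control 1 each among the other group's values.

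The difference was 0.20 with a standard error of 0.14 and a 95% interval from -0.11 to 0.51 (limma, adjusted p = 0.975; exact permutation p = 0.257). The second probe (A_44_P264292), without occlusion 1, whose spot was an outlier by the scanner software, differed by 0.14 with a standard error of 0.12 (limma, adjusted p = 0.975; exact permutation over 35 assignments, p = 0.257). On slide 1 the first probe differed by 0.48 (limma, unadjusted p = 0.0116, adjusted p = 0.865), where 4.22% of all tested probes had an unadjusted p under 0.05, and on slide 2 by -0.08. Without control 1 it differed by 0.30 (limma, unadjusted p = 0.0469, adjusted p = 0.879), and 4.95% of all probes had such a p there.

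Maob, which prefers phenylethylamine and in brain is found mainly in astrocytes and serotonin neurons, was measured by 1 spot (A_43_P11752, NM_013198, chrX:17695771-17697297 of rn3, also across a gap). It was -0.25, 0.01, -0.08 and -0.08 in occlusion 1 to 4. The controls were 0.13, 0.11, -0.18 and -0.14. The controls held the 2 highest rats and 2 of the 3 lowest. The difference was -0.08 with a standard error of 0.10 and a 95% interval from -0.30 to 0.15 (limma, adjusted p = 0.975; exact permutation p = 0.371). The mean of 13 astrocyte genes ran from 0.00 to 0.09 under occlusion and from -0.11 to 0.05 in controls. The correlation of Maoa with Maob over the 8 rats was 0.34.

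The other genes that make, move and break down monoamines showed no call either. Of 23 listed genes 21 had a probe and 18 were tested, of which 13 were higher and 5 lower under occlusion by sign alone, with 0 past the test and a median difference of 0.05. Over all tested probes 50.6% were higher and the median difference was 0.0019. After median centring in place of loess 12 of the 18 were higher, and 11 on the ratios of the scanner software. Among those with the smallest unadjusted p were Gchfr, which regulates the enzyme that makes the tetrahydrobiopterin cofactor of Th, with a difference of 0.37 and a standard error of 0.17, and Spr, the last step of cofactor synthesis, with -0.22 and 0.11. Both had an adjusted p of 0.975 (limma).

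Values by rat show how these differences arose. Gchfr was 0.53, 0.18, 0.26 and -0.04 over the occlusion rats in order, and 0.15, -0.11, -0.57 and -0.04 over the controls, with occlusion 1 and control 3 again at the ends. Its difference was 0.27 without occlusion 1, 0.23 without control 3 and 0.13 without both. Spr was -0.43, -0.15, -0.20 and -0.05 over the occlusion rats and 0.11, 0.07, -0.22 and 0.09 over the controls, and here occlusion 1 and control 3 were the 2 lowest rats. Its difference was -0.15 without occlusion 1, -0.30 without control 3 and -0.23 without both. Qdpr, which recycles the cofactor and was singled out after its values were seen, reached 1.01 in occlusion 1, the other 7 rats having -0.25 to 0.09, and its difference was 0.15 over all rats and -0.15 without occlusion 1.

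Of the remaining genes of that list, Dbh differed by 0.02, Hdc, the histamine-synthesising enzyme, by 0.14, the serotonin transporter gene Slc6a4 by -0.02 and the receptor gene Drd5 by 0.03, each well above background on all 8 arrays. Tph2, the enzyme of serotonin synthesis in the brain, was well above background on 3 arrays and Taar1 on 0, and neither was tested. Tph1, the form of the pineal gland, was well above background on all 8 arrays and ranged from -1.99 in control 3 to 2.00 in occlusion 2, with 0.60 in control 1 and 0.05 in occlusion 3, and was named after its values were seen.

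Among the genes that carry the receptor signal, more were lower than higher by sign alone. All 35 listed genes were tested, with 10 higher and 25 lower, 0 past the test and a median difference of -0.06. The count of 10 higher was the same after median centring and on the scanner ratios. Some of the differences counted were near 0, such as -0.006 for Prkacb and -0.012 for Arrb1. The genes of both lists share the 8 arrays, so their signs are not independent, and no trend is read from either count. The smallest unadjusted p among them belonged to Adrbk1, a kinase that turns off G protein-coupled receptors, with a difference of -0.13 and a standard error of 0.07. Rgs9, which speeds the end of dopamine receptor signalling in striatum, differed by 0.25 with a standard error of 0.14. Gsk3b, a kinase downstream of Drd2, differed by -0.16 with a standard error of 0.09, and each of the 3 had an adjusted p of 0.975 (limma). Ppp1r1b, which encodes the phosphatase inhibitor DARPP-32 of dopamine-receptive neurons, was 0.26 in control 3, the other 7 rats having -0.94 to -0.24.

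For each gene whose brightest probe was well above background on all 8 arrays, the 3 genes of 9879 with the highest Pearson correlation over the 8 rats were found, as a description. For Th these were Ncoa4, Cdkl3 and Asah1 (0.98, 0.96 and 0.96, and 0.93, 0.86 and 0.82 without occlusion 1). For Slc18a2 they were Lemd2, Flt3 and Dysf (0.98, 0.97 and 0.97, and 0.95, 0.91 and 0.81 without occlusion 1). For Ddc they were Cpt1a, Ngb and Adss, each at 0.99, with Spearman values of 0.79, 0.71 and 0.91. For Drd2 they were Adamts20, Tex2 and Dennd2d (0.97, 0.96 and 0.95), for Drd3 Klk5, Prokr2 and Guk1 (0.97, 0.96 and 0.96), for Maoa Pttg1, Cml1 and Ikbkg (0.96, 0.95 and 0.92) and for Maob Mll2, Timm17b and Spbc25 (0.97, 0.96 and 0.95). All these values share the 8 arrays, and nothing is read from the names.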

How the data were processed

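Medial thalamus RNA of 8 rats was measured on 2-colour Agilent arrays, 1 array per rat. Per the file headers, the authors extracted the scans with Agilent Feature Extraction 9.5.1.1, and the deposited files hold, per spot, linear intensity and local background in both channels and a log10 ratio of Cy5 over Cy3. The series' value table deposited by the authors repeats these log10 ratios, and all 45018 spots of each array matched within 1 percent, which settles its scale and direction; the median of each column was 0.

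Intensities were background-corrected with normexp (offset 50) and normalised by loess within each array in limma 3.58.1 (R 4.3.3), with control and outlier spots at weight 0. The normexp parameters were fitted on spots without an outlier flag. This was decided after the data were seen, because on occlusion 3 a few spots with very high local background (lowest net Cy5 signal -44701) shifted the fit over all spots; that fit is an alternative. Outlier spots were left out and the rest averaged per probe. A probe was tested if well above background in Cy5 (in over 0.5 of its spots) on at least 4 arrays, with at least 2 values per group. Tests used lmFit and eBayes, two-sided, with Benjamini-Hochberg adjustment and a threshold of 0.05. Exact permutation tests used all assignments of the rats.

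Members and gene lists were chosen with earlier results of these data known. All probes of the members are named; of each pathway list the 3 tested genes with the smallest p and a few fixed ones are named, except 1 that is not reported here. Of the pathway lists, Pnmt and Rnls had no matched probe. Nothing says that the arrays had technical repeats, so p-values measure the spread between rats. Positions and gene names of probes are those of the array design on rn3; exon or UTR positions were not analysed here. Promoters and updated names are from RefSeq (GRCr8), where all 9 genes matched, Drd1a as Drd1. Same-numbered rats did not deviate together, with correlations of -0.16, 0.09, -0.14 and 0.05. The fit was tested on simulated data. Figures were drawn with matplotlib 3.10.9. Alternatives changed background correction, normalisation, source of the ratios, filters, array weights, slide, replicate number and each rat left out.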

Additional observations from a re-analysis of the deposited data

Results flagged for a closer look

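Of 71 groups of 4 values checked, 13 held a rat far from the other 3 of its group by Dixon's criterion. By chance 1 in 20 would be so, or 3.55. The checks share the same arrays and are not independent, so the count of 13 is not tested against that number. Of the 13, 7 were in control 3 and 3 in occlusion 1. Among the member probes, these were Ddc at 1.23 in occlusion 1 and -1.71 in control 3, Slc18a2 at 1.80 in occlusion 1, Drd1a at -0.14 in control 3, and the second probe of Maoa at 0.089 in control 1. Among the other genes, Slc6a3 was 2.33 in occlusion 1 and Spr -0.22 in control 3. Of the list means, those of the habenula (-1.56), thalamic relay (-1.83), cortex (1.43) and meninges (0.99) genes stood apart in control 3, and those of the monoamine handling (0.055) and astrocyte (0.053) genes in control 1, the last 2 by small amounts.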

How the results depend on the processing

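The count of probes past the threshold was 0 in every alternative run, over all probes, over the members and over the pathway lists (limma), with 714 to 1569 probes at an unadjusted p under 0.05. Of 236 member values under alternatives, 23 changed sign and 0 passed. With array weights Th was -0.182 and Slc18a2 -0.0774. On slide 1 alone Maob was 0.0426; on slide 2 alone Drd1a was 0.0274, Drd2 -0.0453, Drd3 0.0372, Th -0.654, Maoa (A_44_P264293) -0.0802 and Slc18a2 -0.541. With each rat left out in turn, the difference ran from -0.384 to 0.46 for Th, -0.266 to 0.577 for Slc18a2, 0.401 to 1.01 for Ddc, -0.0687 to 0.0152 for Drd1a, -0.0199 to 0.123 for Drd2, -0.109 to -0.019 for Drd3, -0.238 to 0.000657 for Drd4, 0.124 to 0.299 and 0.0741 to 0.255 for the 2 Maoa probes and -0.133 to -0.0299 for Maob. The sign changed without occlusion 1 for Drd1a, Drd2, Th and Slc18a2, and without control 3 for Drd4 and Th (-0.0501).

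Without occlusion 1 and control 3 together, Drd2 was -0.0163, Drd4 0.018, Th -0.577 and Slc18a2 -0.522; with normexp also fitted on all spots they were -0.0208, 0.0394, -0.471 and -0.308. Ddc kept its sign in all 24 alternatives, from 0.0956 to 1.56. The replicate numbers do not pair the rats; with the replicate block 0 probes passed, 899 had an unadjusted p under 0.05, and 1 member did, Ddc (unadjusted p = 0.0318, adjusted p = 0.997). With normexp fitted on all spots, an alternative added after the data were seen, Th in occlusion 3 was -0.15 in place of -0.47, Slc18a2 in occlusion 3 was -0.10 in place of -0.74 and in occlusion 1 was 1.46 in place of 1.80, while the group difference was 0.194 for Th and 0.398 for Slc18a2. On the ratios of the scanner software, which add no offset, Drd4 differed by -0.526 in place of -0.158, Drd1a by -0.17 in place of -0.034 and Drd3 by -0.167 in place of -0.052. The limits are 4 rats per group, 1 spot for most probes, no dye swap and signals near background for Drd1a, Drd4 and the second Slc18a2 probe.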
